A study of Solanum lycopersicum with 9 samples.

Results

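In young tomato fruit, 60 genes were expressed in the locular tissue of the wild type and scarce in the same tissue of 2 lines edited in the transcription factor gene SlZFP2. These genes were chosen by their measured levels: below 1 CPM (counts scaled by the library total) in each of the 6 libraries of the lines, and at least 2 CPM in each of the 3 wild-type libraries. Of the 34075 genes in the count table, 15540 met the line maximum and 15723 met the wild-type minimum. A further 2 genes met both limits and were left out with the identifier group Solyc01g0903. The groups were the CRISPR line c2.11, the CRISPR line c2.5 and unedited wild type (WT), all in the dwarf tomato cultivar Micro-Tom, harvested 6 days after anthesis. Each group had 3 libraries, and each library pooled the tissue of 6 fruits from which the developing seeds had been removed. The labels state neither the edited bases nor the zygosity of the lines, nor whether the pools came from separate plants, so p-values measure the spread between these pools, which may be technical.

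Locular tissue grows out of the placenta, fills the seed chambers of the fruit and turns into gel during ripening. SlZFP2 encodes a zinc finger protein known in tomato as a repressor that restrains abscisic acid synthesis during fruit development. The count table names genes by Solyc identifiers alone, and 0 of the 41476 genes in the RefSeq table used here (assembly SLM_r2.1) carry such an identifier. What the 60 genes encode is therefore not stated, no marker of locular tissue, seed, epidermis or vessels could be looked up, and no sequence is shown.

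The libraries held 19963325 to 20727310 counts, so that 20 counts correspond to about 1 CPM. SlZFP2 itself, taken from general knowledge of the gene to be Solyc07g053570.4, had 30 to 49 counts per library in c2.11, 15 to 31 in c2.5 and 11 to 21 in WT. These counts do not show the edited bases and do not check the genotype labels. Divided by its degrees of freedom, the chi-square between the counts of paired libraries of 1 group was 5.85 to 9.50 in c2.11, 4.56 to 5.58 in c2.5 and 11.5 to 23.2 in WT, so no library duplicated another of its group. Libraries of different groups were not compared in this way. With single libraries left out, the choice gave 60 to 84 genes, with 84 without WT replicate 2 and 71 without c2.5 replicate 2.

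The 60 genes were mostly of low abundance in WT and close to the detection limit in the lines. Their mean level had a median of 0.402 CPM in c2.11, 0.424 CPM in c2.5 and 4.20 CPM in WT. In raw counts, the median was 7 per line library and 81 per WT library. Summed over the 60 genes, the line libraries held 516, 476 and 440 counts in c2.11 and 476, 466 and 500 in c2.5, against 11261, 20099 and 15961 in the WT libraries. The sums of the 6 line libraries thus lay close together, while those of WT differed more. The line maximum bounds each gene in the lines and WT levels are free above, so the choice of genes favours this contrast. In bulk tissue, fewer cells of a type and less RNA per cell cannot be told apart, so these values do not say whether cells expressing the genes were missing.

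In WT, 34 of the 60 genes averaged below 5 CPM, 20 lay between 5 and 10 CPM, 5 between 10 and 100 CPM, and 1 gene above 100 CPM. Of the 15723 genes that met the WT minimum, 92.1% had a mean above the median of the 60 genes. The median of those 15723 genes was 22.1 CPM. The 60 genes made up 0.382% of them. A gene low in WT needs a smaller drop to fall below the line maximum, so the choice itself favours low WT levels.

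**Figure D1:**
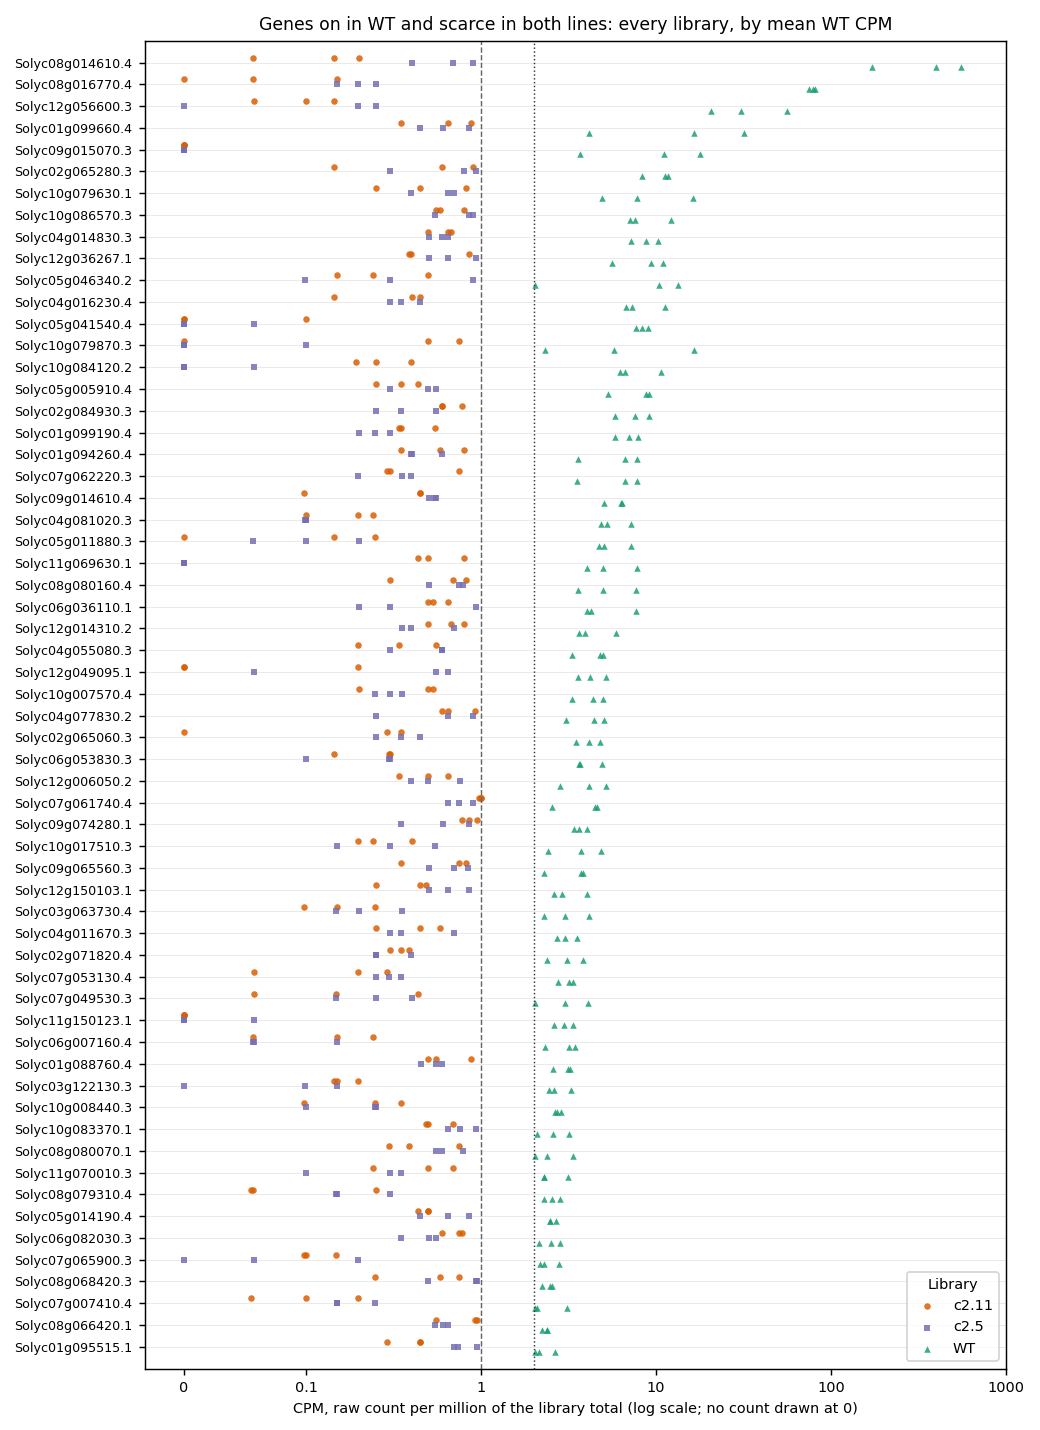
CPM of the 60 genes in each of 9 libraries on a log scale, with c2.11 as circles, c2.5 as squares and WT as triangles, ordered by mean WT level. The dashed line is the line maximum of 1 CPM and the dotted line the WT minimum of 2 CPM. Line libraries run from 0 to 0.998 CPM and WT libraries from 2.03 to 556 CPM.

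The most abundant of these genes was Solyc08g014610.4, which alone held 31.0%, 55.9% and 50.2% of the summed CPM of the 60 genes in the WT libraries. It had 0.0495, 0.145 and 0.20 CPM in c2.11 and 0.898, 0.401 and 0.692 CPM in c2.5, against 173, 556 and 398 CPM in WT. Each line library was thus at least 192-fold below the lowest WT library. Without this gene, the summed levels were 25.5, 22.8 and 21.8 CPM in c2.11 and 22.8, 22.9 and 24.0 CPM in c2.5, against 385, 438 and 395 CPM in WT, so the WT libraries then lay close together. Solyc08g016770.4, the next in abundance, had 0.0495, 0 and 0.15 CPM in c2.11 and 0.249, 0.15 and 0.198 CPM in c2.5, against 74.8, 80.5 and 78.9 CPM in WT. Its WT libraries were nearly level (78.1 ± 2.96 CPM, SD, n = 3), unlike those of Solyc08g014610.4 (376 ± 193 CPM, n = 3). Solyc12g056600.3 had 0.0991, 0.145 and 0.0499 CPM in c2.11 and 0, 0.250 and 0.198 CPM in c2.5, against 20.5, 55.7 and 30.4 CPM in WT. Solyc08g014610.4 was thus higher in each c2.5 library than in any c2.11 library, while the other two were at or below 0.250 CPM in all 6. The means of these 3 genes were 945-fold, 588-fold and 287-fold lower in the 6 line libraries than in WT.

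Among the other genes of the 10 most abundant in WT, 1 had no count in the lines and the rest were 12.8- to 27.9-fold lower. Solyc01g099660.4 had 0.644, 0.868 and 0.349 CPM in c2.11 and 0.848, 0.601 and 0.445 CPM in c2.5, against 31.9, 16.4 and 4.12 CPM in WT. Its lowest WT library was only 4.75-fold above its highest line library. Solyc09g015070.3 had no count in any line library, against 74, 359 and 224 counts (3.66, 17.8 and 11.1 CPM) in WT. Among the 60 genes, no other was at 0 in all 6 line libraries. Taking 3 counts in the 6 line libraries together as the floor, it was at least 438-fold lower in the lines.

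Solyc02g065280.3 had 0.892, 0.145 and 0.599 CPM in c2.11 and 0.299, 0.801 and 0.939 CPM in c2.5, against 8.31, 11.2 and 11.7 CPM in WT. Solyc10g079630.1 had 0.446, 0.820 and 0.250 CPM in c2.11 and 0.649, 0.701 and 0.395 CPM in c2.5, against 4.90, 16.3 and 7.75 CPM in WT. Both were at similar levels in the lines, but the WT libraries of Solyc10g079630.1 spread 3.33-fold and those of Solyc02g065280.3 only 1.41-fold. Solyc10g086570.3 had 0.793, 0.579 and 0.549 CPM in c2.11 and 0.898, 0.852 and 0.544 CPM in c2.5, against 7.62, 7.07 and 12.2 CPM in WT. Solyc04g014830.3 had 0.495, 0.675 and 0.649 CPM in c2.11 and 0.599, 0.501 and 0.642 CPM in c2.5, against 7.23, 10.2 and 8.79 CPM in WT. Solyc12g036267.1 had 0.396, 0.386 and 0.849 CPM in c2.11 and 0.649, 0.501 and 0.939 CPM in c2.5, against 10.9, 9.40 and 5.56 CPM in WT. These 3 genes were 12.8-fold, 14.7-fold and 13.9-fold lower in the lines, near the median of the 60 genes.

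Over the 60 genes, the mean CPM of the 6 line libraries was 14.2-fold below that of WT in the median, with the gene at 0 set to its bound. The smallest difference was 3.33-fold. In 4 genes it was under 4-fold, in 15 from 4- to 10-fold, in 24 from 10- to 20-fold, in 11 from 20- to 100-fold and in 6 over 100-fold. These folds use the library total. In the edgeR fit, which centres the median gene near 0, the log2 fold changes of the 60 genes had a median of -4.09 in c2.11 and -3.93 in c2.5, against medians of 0.01 in both lines over all 19358 genes tested. With library totals in place of this scaling, the 60 genes had medians of -3.82 in c2.11 and -3.65 in c2.5, and all tested genes 0.28 in c2.11 and 0.29 in c2.5. The choice of genes fixes this direction, so no test is given.

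The 6 genes past 100-fold were not all abundant in WT. Besides Solyc08g014610.4, Solyc08g016770.4, Solyc12g056600.3 and Solyc09g015070.3, they were Solyc05g041540.4 and Solyc11g150123.1, named after their values were seen. Solyc05g041540.4 had 0, 0 and 2 counts in c2.11 and 0, 1 and 0 counts in c2.5, against 155, 168 and 180 counts in WT. Solyc11g150123.1 had no count in c2.11 and 0, 1 and 0 counts in c2.5, against 68, 53 and 60 counts in WT. Both were steady among the WT libraries, at 8.31 ± 0.636 CPM and 2.99 ± 0.372 CPM (SD, n = 3). From the pooled counts, the ratio of WT to the lines was 336 for Solyc05g041540.4 (exact 95% interval 114 to 1633) and 362 for Solyc11g150123.1 (64.2 to 14387). These intervals cover counting error only. They do not allow for the choice of the genes on this same contrast and are no test of it.

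Most of the 60 genes still had reads in the lines. In 47 genes every line library held at least 1 count, and 3 genes had 10 counts or fewer over all 6 line libraries. Besides Solyc09g015070.3, which was at 0 in both lines, Solyc11g150123.1 had no count in c2.11 and Solyc11g069630.1 had none in c2.5. Between 4 and 6 genes were at 0 in each c2.11 library and between 3 and 8 in each c2.5 library. A count of 0 in 1 library allows up to 3 counts, about 0.15 CPM at this depth.

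At the edges of the choice, the genes nearest to the limits, inside and outside, were compared in the library that decided. Solyc07g061740.4 was nearest to the line maximum, at 0.991, 0.965 and 0.998 CPM in c2.11 and 0.748, 0.902 and 0.642 CPM in c2.5, against 2.52, 4.50 and 4.57 CPM in WT. Its 3 c2.11 libraries each held 20 counts. The next inside it were Solyc01g095515.1 and Solyc08g068420.3, each with a highest line library of 0.952 CPM. Just outside were Solyc10g150149.1 at 1.04 CPM, Solyc03g097320.3 at 1.05 CPM and Solyc09g010480.1 at 1.05 CPM in their highest line library. At the WT minimum, Solyc01g095515.1, Solyc07g007410.4 and Solyc07g049530.3 each had 2.03 CPM in their lowest WT library. Outside it, Solyc03g095650.3, Solyc02g071770.3 and Solyc06g053960.3 each had 1.98 CPM. Since these genes were picked as the nearest to a limit, their small differences in that library follow from the pick.

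The levels of the 60 genes had a wider median spread between WT libraries than all genes that met the WT minimum. The WT minimum bounds these levels from below and leaves them free above. The highest WT library was 1.52-fold above the lowest in the median of the 60 genes, against 1.16-fold over the 15723 genes that met the WT minimum. A spread over 2-fold was seen in 11 of the 60 genes (18.3%), against 2.14% of the 15723. Low counts widen such ratios, so the values were also taken by abundance. Between 2 and 5 CPM, the median spread was 1.42-fold in 34 of the genes and 1.29-fold in 1706 genes expressed in WT. Between 5 and 10 CPM it was 1.72-fold in 20 of the genes and 1.22-fold in 2331. Above 10 CPM it was 2.97-fold in 6 of the genes and 1.14-fold in 11686. Between 2 and 5 CPM, a spread over 2-fold was seen in 1 of the 34 genes (2.94%), against 3.93% of the 1706, so in that class the share ran the other way from the median. No test of this gap is given, since the genes share the same 3 WT libraries.

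Each WT library was the highest in some of the genes. Replicate 1 was the highest WT library in 15 of the 60 genes, replicate 2 in 20 and replicate 3 in 25. Over the 15723 genes, replicate 1 was highest in 46.5%, replicate 2 in 28.8% and replicate 3 in 24.7%. The genes with a spread over 3-fold numbered 6. Of these, Solyc08g014610.4, Solyc09g015070.3 and Solyc10g079630.1 were highest in WT replicate 2 and lowest in WT replicate 1. The others were highest in WT replicate 1 and were named after their values were seen, apart from Solyc01g099660.4. Solyc05g046340.2 had 0.495, 0.241 and 0.15 CPM in c2.11 and 0.299, 0.902 and 0.0988 CPM in c2.5, against 13.3, 10.4 and 2.04 CPM in WT. Solyc10g079870.3 had 0.743, 0 and 0.499 CPM in c2.11 and 0, 0.10 and 0 CPM in c2.5, against 16.4, 2.32 and 5.71 CPM in WT. In both genes the lowest WT library lay near the 2 CPM minimum.

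**Figure D2:**
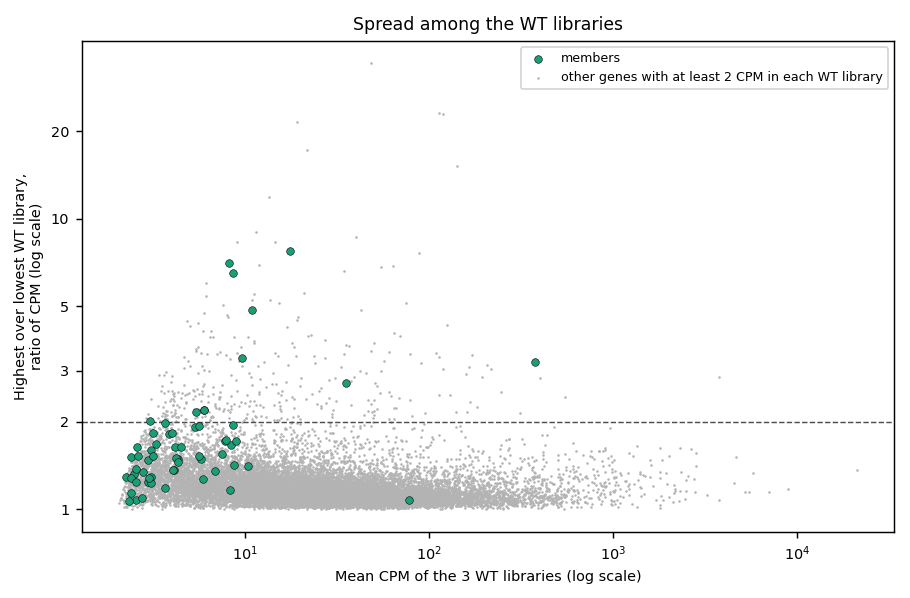
Ratio of the highest to the lowest WT library for each gene with at least 2 CPM in every WT library, against its mean WT CPM, both on log scales. Large points are the 60 genes and small grey points the other genes, and the dashed line marks a 2-fold spread, which 11 of the 60 genes exceed.

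A test between the 2 lines called 1 of the 60 genes. Against WT, the median fold was 14.4-fold lower in c2.11 and 12.9-fold lower in c2.5, with genes at 0 set to their bound. These comparisons share the WT libraries. The mean was higher in c2.11 than in c2.5 in 27 genes, lower in 32 and equal in 1. The log2 difference of c2.11 from c2.5 had a median of -0.07 over the 60 genes and -0.00 over all tested genes. It lay within 1 log2 unit in 52 of the 59 genes with any count in the lines (88.1%), against 98.2% of all tested genes. In 3 genes c2.11 was at least 1 log2 unit higher and in 4 at least 1 log2 unit lower.

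This test was of low resolution for such scarce genes. The 95% interval of the log2 difference reached 1.05 to either side in the median of the 59 genes, against 0.20 over all tested genes. It stayed between -1 and 1 in 5 of the 59 genes, so for the rest a difference of 2-fold or more between the lines lay within the interval. The cap of 1 CPM on both lines also limits how far they can differ. All 60 genes passed the low-count filter, which their WT levels alone could secure, and 27 passed it on the 6 line libraries alone.

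The gene called was Solyc11g069630.1. It had 10, 9 and 16 counts (0.495, 0.434 and 0.799 CPM) in c2.11 and 0 in each c2.5 library, and 101, 81 and 156 counts (5.0, 4.01 and 7.75 CPM) in WT. The groups did not overlap. Taking 3 counts in the 3 c2.5 libraries together as the floor, it was at least 11.6-fold higher in c2.11 than in c2.5. The edgeR quasi-likelihood test, which does not use this floor, gave a Benjamini-Hochberg adjusted p of 0.0152. The gene entered that test through its WT counts, since it did not pass the low-count filter on the line libraries alone. The call ended without c2.11 replicate 1 (0.0560) or 3 (0.0512), or without c2.5 replicate 1 (0.0665), 2 (0.0641) or 3 (0.0661), by the adjusted p of the same edgeR test. That gives 1 of 60 genes called, 1.67%, all of it higher in c2.11, against 1.29% of all 19358 genes tested, 0.708% called higher and 0.579% called lower in c2.11. The share is near that of all genes and is no result about these genes.

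No gene of the 60 was called lower in c2.11 by edgeR or by DESeq2, and 3 had an unadjusted edgeR p under 0.05 in that direction. With both directions, 5 of the 60 (8.33%) passed that unadjusted limit, against 14.4% of all tested genes. The libraries of the 2 lines did not overlap in CPM in 11 of the 60 genes (18.3%), 6 higher and 5 lower in c2.11, against 24.6% of all tested genes. Only 27 of the 60 passed the low-count filter on the line libraries alone, and the rest were tested through their WT counts. The lower shares are therefore no result about these genes. Solyc08g014610.4 was among the 5 lower in c2.11, with its 3 c2.11 libraries below its 3 c2.5 libraries. Its log2 difference was -2.27 (95% interval -6.90 to 2.36, edgeR adjusted p = 0.653). Solyc08g016770.4 also did not overlap in CPM, at -1.50 (95% interval -2.85 to -0.15, edgeR adjusted p = 0.317). Its c2.11 replicate 3 and c2.5 replicate 2 each held 3 counts, however, so only the library totals separated them. Neither Solyc08g014610.4 nor Solyc08g016770.4 passed the low-count filter on the line libraries alone.

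Further genes with a large estimate between the lines were named after their values were seen. Solyc12g049095.1 had 4, 0 and 0 counts in c2.11 and 1, 11 and 13 counts in c2.5, against 72, 105 and 84 counts in WT, so that c2.5 replicate 1 lay among the c2.11 libraries. Its log2 difference was -2.54 (95% interval -4.89 to -0.18, edgeR adjusted p = 0.310). Solyc10g084120.2 had 8, 4 and 5 counts in c2.11 and 0, 1 and 0 counts in c2.5, against 125, 216 and 134 counts in WT. Its groups did not overlap and its log2 difference was 3.63 (95% interval 1.70 to 5.57), but the edgeR adjusted p of 0.0780 missed the threshold. Of the 15 alternatives run for it, it passed in 1, without WT replicate 2 (edgeR adjusted p = 0.0352), and its highest adjusted p was 0.302. Neither Solyc12g049095.1 nor Solyc10g084120.2 passed the low-count filter on the line libraries alone, so both entered the test through their WT counts.

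**Figure D3:**
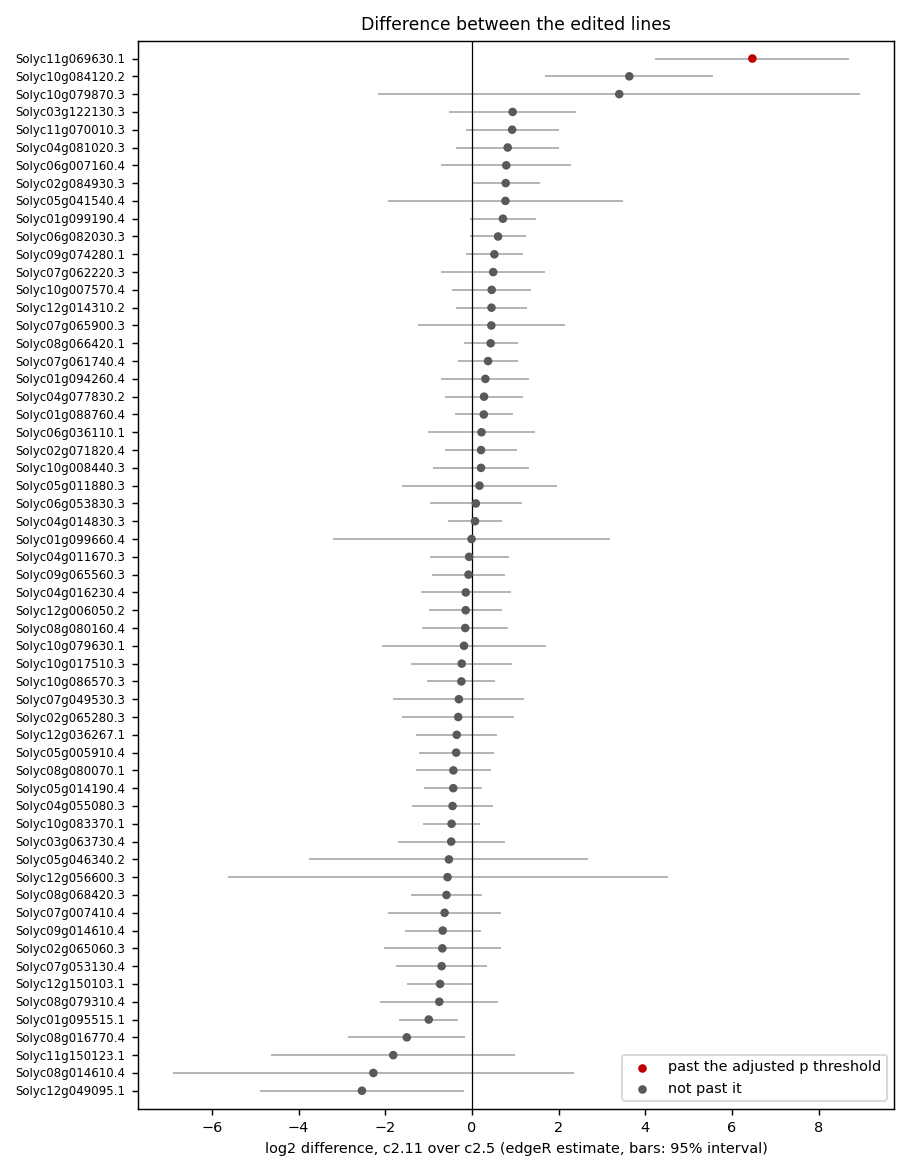
Log2 difference of c2.11 over c2.5 in the edgeR fit for the 59 genes with any count in the lines, with bars for the 95% interval. The estimates run from -2.54 to 6.47, most intervals span 0, and the point past the adjusted p threshold is Solyc11g069630.1.

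The 60 genes were spread over all 12 numbered chromosomes. Chromosome 10 held the most, with 8 genes (13.3%), against 6.51% of the 15723 genes that met the WT minimum. Chromosome 8 held 7 genes (11.7%, against 7.16%), and chromosomes 4, 7 and 12 held 6 each. Chromosome 3 held the fewest, with 2 genes (3.33%, against 10.4%). Chromosomes 1 and 5 held 5 each, chromosomes 2, 6 and 9 held 4 each, and chromosome 11 held 3. Both of the most abundant genes, Solyc08g014610.4 and Solyc08g016770.4, lay on chromosome 8 with 102 genes between them. These counts are small, and no test of the grouping was made.

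**Figure D4:**
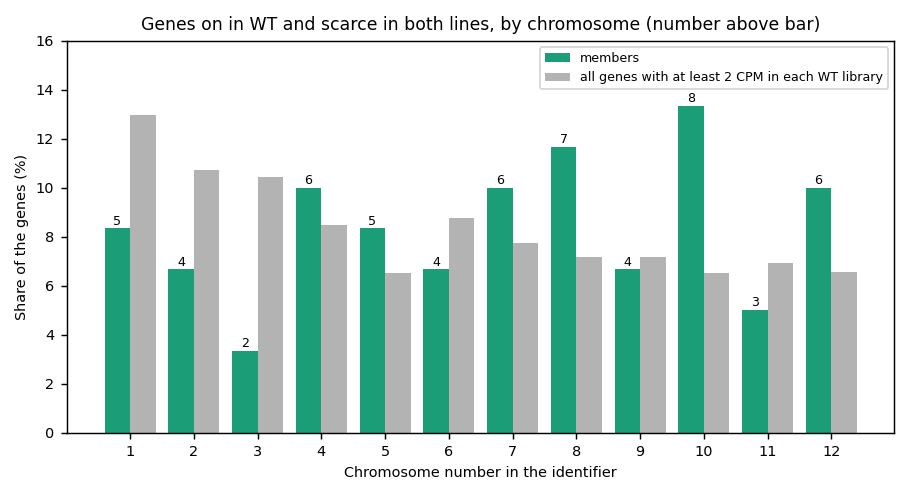
Share of the 60 genes (left bar of each pair, with the number of genes above it) and of all 15723 genes that met the WT minimum (right bar) on each numbered chromosome, in percent. The shares of the 60 genes run from 3.33% on chromosome 3 to 13.3% on chromosome 10.

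None of the 60 genes followed another directly in the order of identifiers. Of 48 pairs of consecutive genes on a chromosome, 1 had at most 10 genes between, 6 had at most 50, and the median was 263. The closest were Solyc08g080070.1 and Solyc08g080160.4 on chromosome 8, named after their values were seen, with 9 genes between them. Solyc08g080070.1 had 0.297, 0.386 and 0.749 CPM in c2.11 and 0.599, 0.551 and 0.791 CPM in c2.5, against 2.03, 2.37 and 3.33 CPM in WT. Solyc08g080160.4 had 0.694, 0.820 and 0.30 CPM in c2.11 and 0.748, 0.501 and 0.791 CPM in c2.5, against 3.56, 7.72 and 4.97 CPM in WT. Of the 9 genes between, 7 were tested, and their log2 change in both lines against WT ran from -1.40 to 0.09, so these 7 did not all share the size of the difference.

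Genes directly beside the 60 were looked at next, a step chosen after seeing the data. The 60 genes had 120 such neighbours, of which 68 were tested. In both lines together against WT, 25 of these 68 were called lower and 17 higher (36.8% and 25%), against 28.6% lower and 28.5% higher among all tested genes (edgeR, adjusted p under the threshold of 0.05). In that fit, the median log2 change of the neighbours was -0.08, against 0.01 for all tested genes, and 11 of the 68 (16.2%) were called lower by 2-fold or more, against 6.98% of all tested genes. With library totals as the scaling, 18 were lower and 31 higher (26.5% and 45.6%), against 15.2% lower and 55.6% higher among all tested genes. The sign of the neighbours' median turned with that scaling, to 0.20, against 0.29 for all tested genes. No test of the neighbours against other genes was made.

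The neighbours given here were named after their values were seen. Both neighbours of Solyc07g007410.4 were low in the lines: Solyc07g007400.3 averaged 0.124 ± 0.0757 CPM in the lines, against 0.959 ± 0.504 CPM in WT, and Solyc07g007420.3 averaged 0.173 ± 0.0426 CPM in the lines, against 1.55 ± 0.897 CPM in WT (SD, 6 line and 3 WT libraries, as for the other neighbours). Solyc07g007410.4 itself had 0.198, 0.0482 and 0.0998 CPM in c2.11 and 0.15, 0.15 and 0.247 CPM in c2.5, against 2.03, 2.08 and 3.08 CPM in WT. These 3 genes in a row were thus scarce in the lines, but so were many genes: 15540 of 34075 were below 1 CPM in each line library. Both neighbours also averaged below 2 CPM in WT. Solyc10g007560.2, beside Solyc10g007570.4, averaged 0.239 ± 0.105 CPM in the lines, against 2.03 ± 0.446 CPM in WT. The most abundant neighbour, Solyc08g080170.3 beside Solyc08g080160.4, averaged 503 ± 52.1 CPM in the lines, against 2317 ± 554 CPM in WT. Its log2 change was -2.49 ± 0.16 (SE, edgeR adjusted p = 6.13e-06). Whether reads of Solyc08g080170.3 were counted for Solyc08g080160.4 was not tested. In the other direction, Solyc08g068410.3, beside Solyc08g068420.3, averaged 0.907 ± 0.307 CPM in the lines, against 0.0827 ± 0.103 CPM in WT.

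The limits kept out other genes through 1 library alone. Of 21 genes that met every limit except in 1 line library, 11 were kept out by c2.5 replicate 2, 4 by c2.11 replicate 1, 3 by c2.5 replicate 3, 2 by c2.5 replicate 1, 1 by c2.11 replicate 2 and 0 by c2.11 replicate 3. Of the 35 genes that missed the WT minimum in 1 library, 24 did so in WT replicate 2, 10 in WT replicate 1 and 1 in WT replicate 3.

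Part of the genes kept out by c2.5 replicate 2 were far above 1 CPM there, and those named here were chosen after their values were seen. In 5 genes that library reached 4 CPM or more: Solyc07g049540.2, Solyc07g053770.2, Solyc08g065443.1, Solyc09g083160.3 and Solyc10g012130.1. Solyc08g065443.1 had 0.198, 0.145 and 0.15 CPM in c2.11 and 0.599, 9.67 and 0.198 CPM in c2.5, against 11.3, 2.08 and 5.02 CPM in WT. Solyc09g083160.3 had 0.446, 0.0482 and 0.250 CPM in c2.11 and 0.599, 7.71 and 0.148 CPM in c2.5, against 11.8, 2.87 and 4.87 CPM in WT. Solyc07g049540.2 had 0.0495, 0 and 0.15 CPM in c2.11 and 0.15, 5.96 and 0 CPM in c2.5, against 11.2, 2.37 and 4.32 CPM in WT. All 5 were highest in WT replicate 1 and lowest in WT replicate 2. Solyc07g049540.2 directly follows Solyc07g049530.3, which is among the 60, and that gene had 0.401 CPM in c2.5 replicate 2 and 2.03 CPM in WT replicate 1. The 2 neighbours thus differed in their pattern over the libraries. Among the 60, c2.5 replicate 2 was the highest line library in 10 genes, and the others in 5 to 12.

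A like case, chosen after its values were seen, was found in c2.5 replicate 3. Solyc12g098540.2 had 0.991, 0.820 and 0.399 CPM in c2.11 and 0.0998, 0.250 and 4.69 CPM in c2.5, against 22.2, 169 and 72.5 CPM in WT. It was kept out by that library alone, although its WT level exceeded that of all but 1 of the 60 genes. Its WT libraries were ordered as those of Solyc08g014610.4, highest in WT replicate 2.

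**Figure D5:**
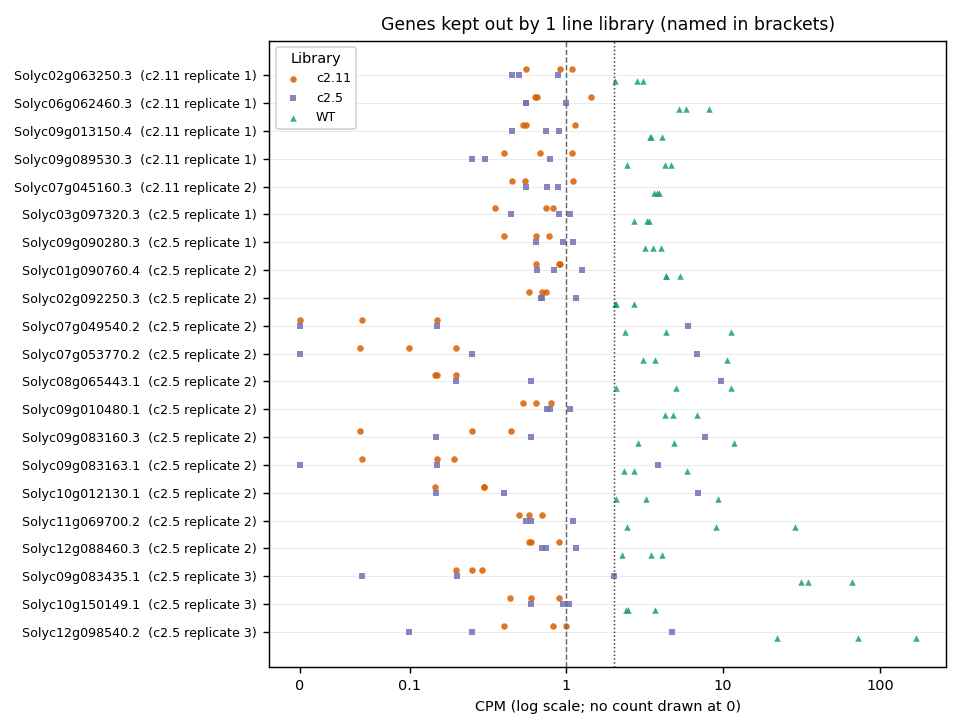
CPM in each library, on a log scale, of the 21 genes that met every limit except in 1 line library, which is named beside each gene. Circles are c2.11, squares c2.5 and triangles WT, and the dashed and dotted lines mark 1 and 2 CPM. Of the genes kept out by c2.5 replicate 2, 6 have that library at 3.86 CPM or more.

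The identifiers end in a version digit. Of the 60 genes, 12 (20.0%) ended in version 1, 5 (8.33%) in version 2, 23 (38.3%) in version 3 and 20 (33.3%) in version 4. Among the 15723 genes that met the WT minimum, 10.6% ended in version 1, 14.5% in version 2, 48.2% in version 3 and 26.5% in version 4. Version 1 was thus a larger share of the 60 genes and version 3 a smaller one, and no test of this was made.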

How the data were processed

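RNA was sequenced from 9 libraries of locular tissue, 3 per genotype, each from tissue of 6 fruits pooled before extraction, per the labels' protocols. The deposited table holds raw counts per gene for 34075 genes, made with featureCounts after FastQC, per the submitters' processing notes, which name no versions. The aligner, build, annotation and strandedness were not given in the sources used here. Overlapping, antisense and near-identical genes therefore cannot be told apart, and no genome coordinates are given. All 34075 rows name a gene.

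CPM is the raw count scaled per column total in the usual way, over all genes of the table. The genes described were chosen by CPM thresholds, and the genes and lists were chosen with earlier results of these data known. Fold changes came from edgeR 4.0.16 (R 4.3.3): filterByExpr on the 3 genotypes, TMM scaling, and a robust quasi-likelihood fit over all 9 libraries with Benjamini-Hochberg adjustment over 19358 genes and a threshold of 0.05. The standard error is the size of the log2 fold change over the square root of the F statistic. Since the thresholds used the contrast of lines against WT, its values for the chosen genes are described without a test. The contrast of c2.11 against c2.5 was tested. The same code was tested on simulated data first. That run set changes only in genes above 1 CPM in c2.5, so it does not cover genes as scarce in the lines as these.

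Genes named by rule were the 10 with the highest mean WT CPM, those at 0 in all 6 line libraries, those past the threshold between the lines, and the 3 nearest to each threshold on either side, most of which are given only in the library that decided. Other genes were named after their values were seen. Chromosome and gene order come from the digits of the identifiers. Poisson and binomial intervals (95%) and the floor of 3 counts cover counting error only. Alternatives were DESeq2 1.42.0, other scalings, filters and thresholds, the lines alone, the replicate block and the removal of each library. Neighbouring genes and their alternatives were chosen after seeing the data.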

Additional observations from a re-analysis of the deposited data

Results flagged for a closer look

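Solyc11g069630.1 differed between the edited lines by the direct test of c2.11 against c2.5. It had 10, 9 and 16 counts in c2.11, none in c2.5, and 101, 81 and 156 counts in WT. Its fitted log2 difference was 6.47 (edgeR adjusted p = 0.0152), a value that depends on the prior count of the fit because all c2.5 libraries were at 0. Over the alternatives its adjusted p ranged from 0.000265 (DESeq2) to 0.0665 (edgeR without c2.5 replicate 1). With only the lines fitted it was not tested, since it passed the low-count filter through its WT counts alone. The tested gene before it in identifier order, Solyc11g069625.1, did not pass the threshold in both lines against WT (log2 change 0.44, edgeR adjusted p = 0.283).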

How the results depend on the processing

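The number of genes depends on the limits that define them. It was 60 as chosen, 131 with a WT minimum of 1 CPM, 14 with 5 CPM, 21 with a line maximum of 0.5 CPM, 141 with 2 CPM, and 161 when group means had to meet the limits. With TMM or median-of-ratios scaling it was 70, and all 60 were among them. Without single libraries it ranged from 60 to 84. Called genes of the 60 between c2.11 and c2.5 numbered 1, and 0 to 2 without single libraries. With only the lines fitted it was 0, because Solyc11g069630.1 did not pass the low-count filter there. Among all genes the calls between the lines numbered 249, against 626 in a fit of the lines alone, 444 by DESeq2 and 70 to 356 when 1 library was left out, and the cause was not tested. With the replicate block they numbered 217, and the 1 call among the 60 was again Solyc11g069630.1. Same-numbered libraries share only a number: correlations of their deviations from genotype means ran from -0.26 to 0.24, and those of differently numbered libraries from -0.29 to 0.36. With total count scaling 31 neighbouring genes were called higher in the lines (45.6%, against 55.6% of all tested genes). With TMM scaling it was 17 (25%, against 28.5% of all tested genes). Over the alternatives run, the median log2 change of the 60 genes against WT ranged from -4.20 to -3.82 in c2.11 and from -4.10 to -3.65 in c2.5, and the median difference between the lines from -0.10 to 0.01. The line maximum of 1 CPM caps the counts of the 60 genes in the lines. Their median was 7 counts per line library, against 81 per WT library at similar library totals.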
